A study of Homo sapiens with 15 samples.

Results

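The p53 target genes are a set of 35 protein-coding genes that p53 is known to switch on, and they were found in the deposited RNA-seq table by gene symbol. Each symbol matched 1 of the 61544 listed genes, and 33 of the 35 had enough counts to be tested among 25108 genes. The measurements came from HCC95, an established cell line of human lung squamous cell carcinoma (LUSC), after transfection with a small interfering RNA (siRNA) against TP63 (siTP63b), SOX2 (siSOX2b), KLF5 (siKLF5b) or GRHL2 (siGRHL2a), or with a negative control siRNA (siNC1). Each of the 5 groups had 3 libraries of polyadenylated RNA, and each knockdown rested on a single siRNA in a single line. The labels do not say whether the 3 libraries of a group came from separate cultures, so p-values measure the spread between these libraries, which may be technical. The question addressed here was whether loss of p63 changes genes that p63 shares with p53, and how the same genes stood after loss of the other factors.

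p53 is a transcription factor that is kept low by the ubiquitin ligase MDM2 and accumulates after DNA damage and other stress. Its target genes halt the cell cycle, repair DNA, open the mitochondrial and death receptor routes to apoptosis, shift metabolism, and feed back on p53 itself. p63 and p73 belong to the same family and bind a nearly identical DNA element, and in squamous epithelium the main p63 isoforms lack the N-terminal transactivation domain and can occupy p53 elements as well as drive squamous genes. SOX2, KLF5 and GRHL2 belong to other families of transcription factors with their own motifs.

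The siRNAs lowered their own transcripts to different extents. TP63 in siTP63b stood at 53.3% of siNC1 (log2 fold change, log2FC, -0.91 ± 0.05, SE), SOX2 in siSOX2b at 12.1%, KLF5 in siKLF5b at 64.2% and GRHL2 in siGRHL2a at 67.7%, and in none of the 4 pairs did the libraries overlap. Library totals ran from 15655495 counts in siKLF5b to 34229063 in siGRHL2a. The libraries fell into 2 sets by the names of their columns, siNC1 and siKLF5b in the one and the other 3 groups in the other. Even counts made up 49.7% to 50.7% of all counts from 20 to 500 in the first set and 66.1% to 69.0% of those in the second. Whether both reads of a pair were counted in the second set is not given in the sources used here, and counts printed for its libraries may therefore exceed the number of fragments and make p-values there too small. With the counts of those 9 libraries halved, every gene call among siTP63b, siSOX2b and siGRHL2a remained except that of TP53INP1 in siTP63b against siGRHL2a (-0.748). For siTP63b, siSOX2b and siGRHL2a, the set and the knockdown cannot be told apart in a comparison with siNC1. siKLF5b was compared with siNC1, and siTP63b with siSOX2b, with siGRHL2a and with the mean of both. These last comparisons share libraries, and a difference in them may arise in either group. Levels are given as CPM, the count scaled to the effective size of its library, and are not adjusted for gene length, so they are compared between groups and not between genes. All 8 squamous epithelial markers had enough counts to be tested, with KRT5 at a mean of 5363 to 9192 CPM, whereas markers of other cell types were mixed: the fibroblast gene DCN and the immune genes CD3E and LYZ had a mean of at most 0.0577 CPM in every group, but the macrophage marker CD68 had 22.6 to 34.6 CPM, the endothelial gene VWF 3.55 to 14.5 CPM and the fibroblast gene COL1A1 2.12 to 5.22 CPM. A gene was called when the adjusted p of the edgeR quasi-likelihood test was below 0.05 and the absolute log2FC was above 0.75.

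The p53 element consists of 2 half-sites of 10 bases, each with a 4-base core. A match to this p53 consensus with no spacer between the half-sites, the C and G of each core in place and at most 2 mismatches elsewhere was found within 3000 bases of the listed gene start of 16 of the 35 genes (45.7%), against 4.71% of all genes tested. The consensus reads the same on both strands, so that a single search covered both. With at most 1 mismatch there were 8 genes (22.9%, against 0.661% of genes tested), and PLK2 alone of the 35 had a match with 0 mismatches (2.86%, against 0.0836%). The 35 genes were listed as known p53 targets, so a larger share than over all genes follows from the list and supports nothing further. The genes tested also include noncoding genes, whereas the 35 are protein-coding. The matches below are those of 8 genes described further on, read on the strand of the gene from hg38, with the cores in capitals. They describe the letters of the genome, and the RNA-seq data do not say whether p53 or p63 was bound there.
CDKN1A, 2 mismatches, chr6:36676449-36676468, plus strand: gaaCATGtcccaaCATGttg
BTG2, 2 mismatches, chr1:203303642-203303661, plus strand: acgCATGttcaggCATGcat
CCNG1, 1 mismatch, chr5:163437926-163437945, plus strand: gcaCAAGcccaggCTAGtcc
GADD45A, 1 mismatch, chr1:67686775-67686794, plus strand: gaaCATGtctaagCATGctg
PLK2, 0 mismatches, chr5:58462274-58462293, minus strand: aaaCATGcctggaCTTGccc
GDF15, 1 mismatch, chr19:18373947-18373966, plus strand: agaCCTGcccggaCATGtcc
PMAIP1, 2 mismatches, chr18:59899549-59899568, plus strand: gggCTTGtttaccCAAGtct
MDM2, 2 mismatches, chr12:68808923-68808942, plus strand: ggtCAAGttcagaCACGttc
Distances were taken from the first base of a match to the listed gene start, the outer end of the gene's span. That end need not be the start site in use. The CDKN1A match began 11 bases before the listed gene start and ran across it. That of PMAIP1 lay 447 bases before the gene start and that of BTG2 1849 bases before it. In GADD45A the match lay 1574 bases after the gene start, in CCNG1 357 bases and in MDM2 746 bases after it, that is, within the span of each gene. RRM2B had a match with 1 mismatch 2102 bases after its gene start, whose letters are not shown. SFN had no such match in this window, which says only that these letters are not there.

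RRM2B, BTG2 and SFN were lower in siTP63b than the mean of siSOX2b and siGRHL2a, and none of the p53 target genes was higher past both thresholds. RRM2B supplies deoxynucleotides for DNA repair, while BTG2 and SFN hold back the cell cycle. Of the 33 genes tested, 3 were called lower (9.09%, against 2.73% of all genes tested) and 0 higher (against 2.65%). By adjusted p below 0.05 alone, 11 were lower and 9 higher, where the shares over all genes were 14.9% and 16.1%. The median log2FC of the 33 genes was -0.0192, beside -0.00235 over all genes, and 17 were below 0 and 16 above it. The genes moved in both directions, and CDKN1A, MDM2 and PPM1D were on the higher side. In bulk RNA a smaller share of cells that express a gene and less RNA per cell cannot be told apart.

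Within that set, siTP63b against siSOX2b gave 3 genes called lower and 1 higher (2.82% and 3.88% of all genes). siTP63b against siGRHL2a gave 4 lower and 3 higher (3.21% and 2.18% of all genes). By adjusted p alone the counts were 11 lower and 5 higher against siSOX2b, with 15.4% and 16.4% over all genes, and 8 lower and 12 higher against siGRHL2a, with 13.4% and 13.6%. RRM2B and BTG2 were lower than in either of the other knockdowns. As a view of the comparison groups themselves, siSOX2b against siGRHL2a gave 0 genes called lower and 1 higher (2.27% and 1.05% of all genes), and 4 lower and 13 higher by adjusted p alone (12.7% and 11.8%).

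CDKN1A, SFN and CCNG1, which all act on the cell cycle, fell after KLF5 knockdown. In siKLF5b against siNC1, 3 of the 33 genes were called lower (9.09%, against 1.37% of all genes) and 0 higher (against 1.89%). By adjusted p alone, 12 were lower (36.4%, against 12.9% of all genes) and 1 was higher (3.03%, against 10.3%). The log2FC was below 0 in 28 of the 33 genes, with a median of -0.213 beside -0.00973 over all genes. Both of these groups belong to the same set of libraries.

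**Figure D1:**
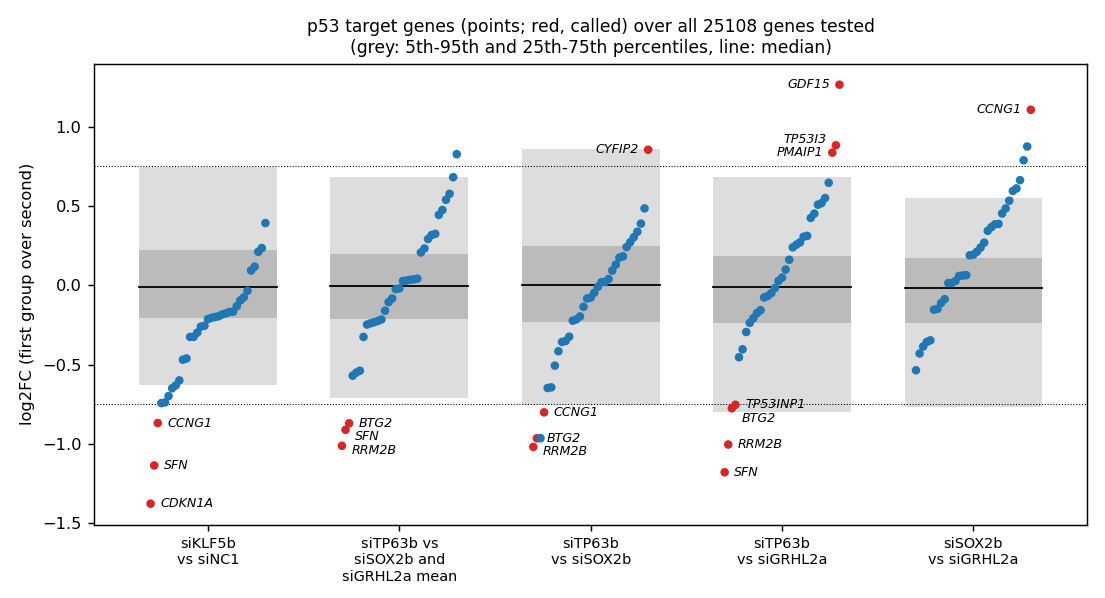
log2FC of the 33 tested p53 target genes (points, sorted within each comparison) over all 25108 genes tested, whose 5th to 95th and 25th to 75th percentiles are the light and dark grey bands and whose median is the black line. Red points are called genes and the dotted lines mark an absolute log2FC of 0.75. In siKLF5b against siNC1 28 of the 33 points lie below 0, while in siTP63b against the mean of siSOX2b and siGRHL2a 17 lie below and 16 above.

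The first role group holds 11 genes of cell cycle arrest, growth control and stress signalling. All 11 had a log2FC below 0 in siKLF5b against siNC1, 8 of them with an adjusted p below 0.05 (72.7%, against 12.9% of all genes lower) and 3 past both thresholds (27.3%, against 1.37%), and their median was -0.648. In siTP63b against the mean of siSOX2b and siGRHL2a, 8 of the 11 were below 0, with 2 called lower (18.2%, against 2.73% of all genes), 0 called higher (against 2.65%) and a median of -0.247. Against siSOX2b alone, 9 of the 11 were below 0, with a median of -0.351. By adjusted p, 6 were lower and 1 higher there (54.5% and 9.09%, against 15.4% and 16.4% of all genes). Against siGRHL2a alone, 6 were below 0 and 5 above it, with a median of -0.0759. By adjusted p, 4 were lower and 4 higher there (36.4% each, against 13.4% and 13.6%).

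CDKN1A encodes p21, the inhibitor of cyclin-dependent kinases through which p53 halts the cycle in G1. Its level was 12.2, 11.1 and 9.60 CPM in siNC1 and 4.39, 4.36 and 3.82 CPM in siKLF5b. In siTP63b it was 18.1, 17.7 and 16.3 CPM, in siSOX2b 13.9, 14.2 and 13.1 CPM, and in siGRHL2a 11.5, 11.5 and 12.6 CPM. The siKLF5b libraries were the lowest and the siTP63b libraries the highest, and neither group overlapped the one it was compared with. CDKN1A fell to 38.5% of siNC1 in siKLF5b (log2FC -1.38 ± 0.12, SE, n = 3 and 3, edgeR adjusted p = 2.41e-10). In siTP63b it was higher than the mean of siSOX2b and siGRHL2a by a log2FC of 0.44 ± 0.08 (edgeR adjusted p = 6.87e-05), under the fold threshold, and it was also above each of the 2 groups alone, by 0.34 and 0.55. siSOX2b and siGRHL2a did not differ by the test (0.21, edgeR adjusted p = 0.112).

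SFN encodes 14-3-3 sigma, which holds cells in G2 and is also a gene of stratified epithelium. It was measured at 355, 292 and 295 CPM in siNC1 and at 132, 142 and 156 CPM in siKLF5b. The siTP63b libraries had 318, 293 and 351 CPM, the siSOX2b libraries 514, 404 and 585 CPM, and the siGRHL2a libraries 646, 668 and 862 CPM. The siTP63b values lay within the range of siNC1 and below every siSOX2b and siGRHL2a library, and siKLF5b was lower than all other groups. SFN fell to 45.5% in siKLF5b (log2FC -1.14 ± 0.10, edgeR adjusted p = 5.25e-10). It was lower in siTP63b than the mean of the other 2 knockdowns (-0.91 ± 0.09, edgeR adjusted p = 9.84e-10), than siGRHL2a (-1.18, called) and than siSOX2b (-0.64, not called). Set against siNC1 instead, siTP63b had a log2FC of 0.03 (edgeR adjusted p = 0.825), while siSOX2b and siGRHL2a stood 0.67 and 1.21 above siNC1. The comparison with siNC1 crosses the 2 sets of libraries.

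CCNG1 encodes cyclin G1, which binds a subunit of the phosphatase PP2A and takes part in the feedback on MDM2. It stood at 89.3, 82.0 and 83.5 CPM in siNC1 and 49.6, 47.0 and 42.8 CPM in siKLF5b. siTP63b had 37.7, 35.6 and 33.1 CPM, siSOX2b 61.5, 68.8 and 54.5 CPM, and siGRHL2a 32.3, 25.3 and 28.4 CPM. siNC1 was the highest group and siGRHL2a the lowest, and siTP63b lay between siGRHL2a and siSOX2b without overlapping either. CCNG1 fell in siKLF5b (-0.87 ± 0.08, edgeR adjusted p = 8.33e-10) and was higher in siSOX2b than in siGRHL2a by 1.11 ± 0.08 (edgeR adjusted p = 7.12e-12). siTP63b was lower than siSOX2b (-0.80 ± 0.08) and higher than siGRHL2a (0.31, adjusted p = 0.00487 in edgeR, not called), so that the mean of both gave only -0.25.

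BTG2, an antiproliferative gene that slows entry into S phase, had 22.9, 23.8 and 23.4 CPM in siNC1 and 20.1, 19.3 and 19.3 CPM in siKLF5b. Its level was 16.6, 13.2 and 18.2 CPM in siTP63b, 32.7, 28.6 and 32.6 CPM in siSOX2b, and 28.7, 25.9 and 27.6 CPM in siGRHL2a. Every siTP63b library was below every library of the other 4 groups. BTG2 was lower in siTP63b than the mean of siSOX2b and siGRHL2a (-0.87 ± 0.08, edgeR adjusted p = 2.67e-10), than siSOX2b (-0.96 ± 0.09) and than siGRHL2a (-0.77 ± 0.09), all called. Against siNC1 the log2FC was -0.54 ± 0.09, across the sets. Without siTP63b replicate 2, the lowest library, the log2FC was -0.742 against the mean and -0.642 against siGRHL2a, and without siGRHL2a replicate 1 the latter was -0.738, in each case just under the fold threshold.

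GADD45A, a sensor of genotoxic stress that acts on the G2 checkpoint and on repair, was not called in any of the 5 comparisons but passed the adjusted p in all of them. It fell by 0.65 in siKLF5b against siNC1, and siTP63b stood lower than the mean of siSOX2b and siGRHL2a by a log2FC of -0.55 ± 0.05 (edgeR adjusted p = 9.76e-11). The siTP63b libraries held 70.6 to 73.9 CPM, the siSOX2b libraries 109 to 116 CPM and the siGRHL2a libraries 91.5 to 104 CPM. siNC1, at 46.6 to 51.9 CPM, was lower than all 3, across the sets.

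TP53INP1 helps p53 to induce arrest and apoptosis through a kinase that phosphorylates it. It was present at 15.7, 12.7 and 14.2 CPM in siNC1, and at 9.29, 7.85 and 8.33 CPM in siKLF5b. siTP63b had 5.22, 4.62 and 5.45 CPM, siSOX2b 7.67, 5.70 and 5.66 CPM, and siGRHL2a 10.99, 6.54 and 8.20 CPM. siTP63b was the lowest group and did not overlap the others. It was called lower in siTP63b against siGRHL2a, at a log2FC of -0.752 ± 0.151 on the edge of the threshold, and lost the call without siTP63b replicate 2 (-0.676), without siGRHL2a replicate 1 (-0.529) and under 6 other settings (-0.749 to -0.735). TP53INP1 lies on the opposite strand to NDUFAF6, which had 528% of its counts, and NDUFAF6 moved by -0.08 in that comparison.

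GDF15 encodes a secreted stress hormone of the TGF-beta superfamily and was near the limit of detection, at 8 to 46 counts a library. The levels were 1.77, 0.659 and 0.797 CPM in siNC1, and 0.732, 0.617 and 0.827 CPM in siKLF5b. In siTP63b they were 0.653, 0.918 and 1.64 CPM, in siSOX2b 0.887, 0.970 and 0.531 CPM, and in siGRHL2a 0.232, 0.482 and 0.612 CPM. The siTP63b libraries lay above those of siGRHL2a and overlapped every other group. GDF15 was called higher in siTP63b against siGRHL2a (1.26 ± 0.42, edgeR adjusted p = 0.0221), and the adjusted p rose to 0.186 without siTP63b replicate 3 (log2FC 0.837) and to 0.117 without siGRHL2a replicate 1 (0.956).

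The other 4 genes of this group were not called in any of the 5 comparisons. PLK2, a polo-like kinase, and the sestrin SESN1, which damps growth signalling, fell in siKLF5b by adjusted p alone, by 0.32 and 0.63 on the log2 scale. SESN2 and PLK3 were also below 0 there (-0.20 and -0.70) without passing it. PLK3 had 5 to 19 counts a library in those 2 groups. In siTP63b against the mean of the other 2 knockdowns, SESN1 had a log2FC of -0.33 and passed the adjusted p. PLK2 (0.04), PLK3 (-0.11) and SESN2 (-0.02) did not pass it there. SESN2 was lower than in siSOX2b by adjusted p alone (-0.35), while its 0.31 against siGRHL2a did not pass. For SESN2, siSOX2b was itself 0.66 above siGRHL2a. PLK2 passed the adjusted p against siGRHL2a (0.16) but not against siSOX2b (-0.08). SESN1 passed it against siSOX2b (-0.36) but not against siGRHL2a (-0.29).

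**Figure D2:**
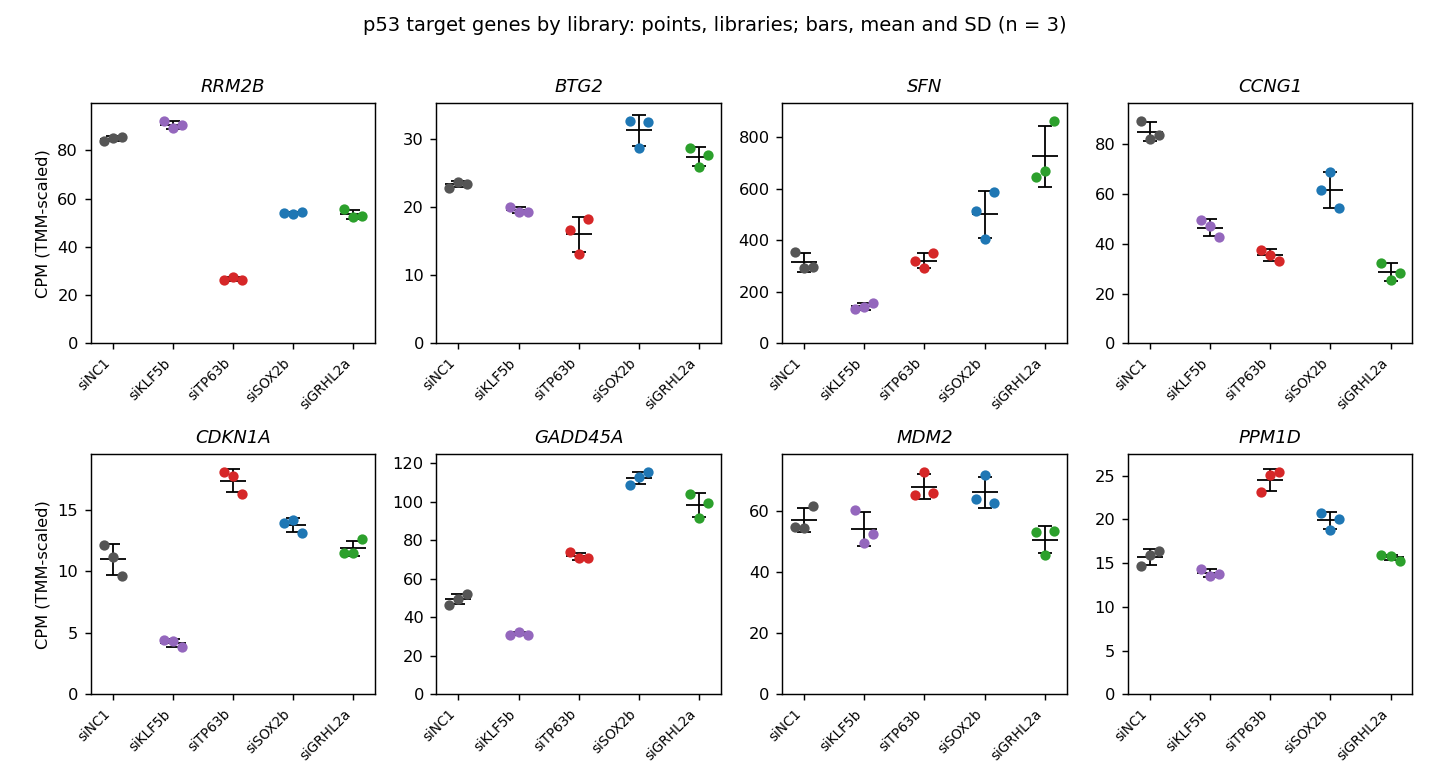
CPM (TMM-scaled, from 0) of 8 p53 target genes in the 15 libraries, 1 panel a gene and 1 column a group, with points for libraries and bars for the mean and SD (n = 3). The RRM2B and BTG2 points of siTP63b lie below those of every other group, the CDKN1A and PPM1D points of siTP63b lie above them, and siKLF5b is lowest for CDKN1A, SFN and GADD45A.

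The 2 feedback genes stood higher in siTP63b than in siGRHL2a, under the fold threshold. MDM2, the ligase that marks p53 for degradation, had 54.8, 54.4 and 61.4 CPM in siNC1 and 60.1, 49.6 and 52.5 CPM in siKLF5b. It had 65.2, 72.7 and 65.8 CPM in siTP63b, 63.8, 71.7 and 62.5 CPM in siSOX2b, and 53, 45.5 and 53.2 CPM in siGRHL2a. siTP63b and siSOX2b overlapped, and siGRHL2a was below both. The log2FC of siTP63b was 0.23 against the mean (edgeR adjusted p = 0.00412), 0.43 against siGRHL2a and 0.04 against siSOX2b, the last not past the test. PPM1D, the phosphatase Wip1 that switches off p53 signalling, was higher in siTP63b against the mean by 0.48 ± 0.07 (edgeR adjusted p = 1.35e-06), and its libraries at 23.1 to 25.4 CPM lay above all 12 others. Neither gene passed the test in siKLF5b (-0.07 and -0.18). MDM2 overlaps 3 listed genes with at least 10% as many counts. The carboxypeptidase gene CPM on the opposite strand had 74.3% of its counts and a log2FC of -0.08 in siTP63b against the mean, which did not pass the test. ENSG00000257181 on the opposite strand (32.5%) and the pseudogene ENSG00000256664 on the same strand (14.7%) were higher there by 0.26 and 0.37, and against siGRHL2a by 0.47 and 0.56, all by adjusted p alone, in the direction of MDM2.

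DNA repair and nucleotide supply was represented by 4 genes, of which only RRM2B was called. RRM2B encodes the p53-inducible small subunit of ribonucleotide reductase, which supplies deoxynucleotides for repair. The values were 84.0, 85.01 and 85.7 CPM in siNC1, and 92.2, 89.1 and 90.5 CPM in siKLF5b. siTP63b had 26.1, 27.6 and 26.5 CPM, siSOX2b 54.1, 53.8 and 54.5 CPM, and siGRHL2a 55.8, 52.4 and 52.6 CPM. The siTP63b libraries were below all others, and siSOX2b and siGRHL2a overlapped each other. RRM2B was at 49.6% of the mean of siSOX2b and siGRHL2a in siTP63b (log2FC -1.01 ± 0.05, edgeR adjusted p = 1.18e-16), with -1.02 against siSOX2b and -1.003 against siGRHL2a. These 3 values remained called in every alternative, with a log2FC between -1.67 and -0.971. Across the sets, siTP63b was at 31.5% of siNC1. The gene had at least 744 counts in each library. siKLF5b did not differ from siNC1 by the test (0.09, edgeR adjusted p = 0.204).

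XPC, which recognises helix-distorting damage, was the only p53 target gene that rose in siKLF5b by adjusted p alone (0.39), and it was not called in any comparison. DDB2, which recognises UV damage, was lower in siTP63b than in siGRHL2a by adjusted p alone (-0.40), as was XPC (-0.24). Neither passed the test against siSOX2b (-0.05 and -0.08). For DDB2, siSOX2b was itself below siGRHL2a by adjusted p alone (-0.36). POLH, the polymerase that bypasses UV lesions, had a log2FC of 0.03 in siTP63b against the mean. By adjusted p alone, POLH was lower in siTP63b than in siSOX2b (-0.20) and higher than in siGRHL2a (0.26). It was also higher in siSOX2b than in siGRHL2a (0.45). XPC overlaps 2 listed genes on the opposite strand. XPC-AS1, with 86.7% of its counts, rose in siKLF5b by 0.41 (edgeR adjusted p = 0.000234) beside XPC, and ENSG00000268279, with 165%, had a log2FC of -0.16 that did not pass the test. In siTP63b against siGRHL2a, XPC-AS1 was lower by adjusted p alone (-0.23), and ENSG00000268279 (-0.16) did not pass the test. POLH overlaps GTPBP2 on the opposite strand, which had 97.7% of its counts and a log2FC of -0.06 in siTP63b against the mean. GTPBP2 was lower than in siSOX2b by adjusted p alone (-0.20) and did not pass the test against siGRHL2a (0.08).

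Of the 9 genes of intrinsic apoptosis and mitochondria, 8 were tested, and 6 of these were above 0 in siTP63b against the mean of siSOX2b and siGRHL2a. Against the mean, 4 of the 8 passed the adjusted p upwards (50%, against 16.1% of all genes) and 1 downwards (12.5%, against 14.9%), with 0 called (against 2.65% of all genes higher and 2.73% lower). BBC3 (PUMA), a BH3-only trigger of apoptosis, had 0 to 14 counts a library and was not tested. PMAIP1 encodes NOXA, another BH3-only protein. It had 20.97, 23.4 and 22.6 CPM in siNC1, and 19.2, 20.4 and 19.3 CPM in siKLF5b. In siTP63b it had 22.6, 22.3 and 21.8 CPM, in siSOX2b 18.8, 19.1 and 18.5 CPM, and in siGRHL2a 13.8, 12.2 and 11.3 CPM. siGRHL2a was the lowest group, and siTP63b lay within the range of siNC1. PMAIP1 was called higher in siTP63b against siGRHL2a (0.84 ± 0.08, edgeR adjusted p = 2.02e-09) and was 0.24 above siSOX2b, and siSOX2b was itself 0.59 above siGRHL2a.

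CYFIP2, a member of the WAVE actin complex that p53 induces, was measured at 5.36, 5.27 and 4.95 CPM in siNC1 and 4.94, 3.33 and 2.93 CPM in siKLF5b. siTP63b had 6.01, 7.68 and 5.63 CPM, siSOX2b 4.34, 3.09 and 3.18 CPM, and siGRHL2a 4.70, 3.86 and 5.02 CPM. siTP63b was the highest group and did not overlap the others. CYFIP2 was called higher in siTP63b against siSOX2b (0.855 ± 0.170, edgeR adjusted p = 0.000196), and its log2FC was 0.708 without siTP63b replicate 2. A listed gene on the opposite strand, ENSG00000285868, spans part of CYFIP2 with 30.9% of its counts and was also higher in siTP63b against siSOX2b, by 0.88. ADAM19, which overlaps its end with 81.0% of its counts, was lower there by a log2FC of -0.46.

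PHLDA3, which restrains AKT, fell in siKLF5b by adjusted p alone (-0.74) and was 0.29 higher in siTP63b against the mean. It passed the adjusted p against siSOX2b (0.49) but not against siGRHL2a (0.10). BAX, the pore-forming effector at the mitochondrion, did not pass the test in any of the 5 comparisons, with log2FC from -0.09 to 0.05. SPATA18, which acts in mitochondrial quality control, did not pass it either (-0.09 to 0.24). TRIAP1, an inhibitor of apoptosis, was higher in siTP63b against the mean by adjusted p alone (0.32), and RPS27L, a ribosomal protein paralog, was lower (-0.21). TRIAP1 passed the adjusted p against siGRHL2a (0.45) but not against siSOX2b (0.18), while RPS27L passed it against both (-0.21 and -0.22). AEN, a nuclease that degrades DNA in apoptosis, was at 0.03 in siTP63b against the mean. TRIAP1 lies opposite ENSG00000111780, which had 499% of its counts and was higher in that comparison by 0.30 (edgeR adjusted p = 2.49e-05). RPS27L lies opposite LACTB, which had 84.8% of its counts and was lower there by a log2FC of -0.26 (edgeR adjusted p = 0.000896). Both overlapping genes thus moved with the p53 target gene against the mean. ENSG00000111780, however, passed the adjusted p against siSOX2b (0.57) and not against siGRHL2a (0.04), where TRIAP1 did the reverse.

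Among the 5 death receptor genes, 4 were tested and none was called in any of the 5 comparisons. FAS, the receptor for FAS ligand, fell in siKLF5b by 0.47 on the log2 scale and was 0.33 higher in siTP63b against the mean, both by adjusted p alone. Against siGRHL2a it was 0.52 higher, past the adjusted p, while the 0.13 against siSOX2b did not pass. siSOX2b was itself 0.39 above siGRHL2a. STAMBPL1, which overlaps FAS on the same strand with 54.9% of its counts, was higher in siTP63b against the mean by 0.55 (edgeR adjusted p = 9.92e-06), more than FAS, and did not pass the test in siKLF5b (0.06). ACTA2 (30.8%) and ENSG00000286116 (16.8%) overlap FAS on the opposite strand. In siKLF5b, ACTA2 had 0.23 and ENSG00000286116 -0.54, the latter in the direction of FAS (edgeR adjusted p = 0.314 and 0.0574). Against the mean both had 0.15, not past the test. TNFRSF10B (DR5), a receptor for TRAIL, fell in siKLF5b by 0.30, and TNFRSF10A (DR4) was lower in siTP63b against siSOX2b (-0.51) but not against siGRHL2a (0.03). RHOBTB2, opposite TNFRSF10B with 47.7% of its counts, had a log2FC of -0.09 in siKLF5b, and TNFRSF10A-AS1 (23.5%) and TNFRSF10A-DT (16.2%), opposite TNFRSF10A, had -0.21 and -0.48 against siSOX2b, none of them past the test. EDA2R, a receptor for ectodysplasin A2, had 6 to 34 counts a library and reached -0.96 against siSOX2b without passing the test. TNFRSF10C, a decoy receptor for TRAIL, had 0 to 2 counts a library and was not tested.

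The 4 metabolic genes included 1 called value. TP53I3 (PIG3), a quinone oxidoreductase, had 0.931, 1.10 and 1.51 CPM in siNC1 and 1.60, 1.19 and 1.34 CPM in siKLF5b. In siTP63b it had 1.86, 2.79 and 2.24 CPM, in siSOX2b 1.99, 2.15 and 1.504 CPM, and in siGRHL2a 1.65, 1.03 and 1.04 CPM. siTP63b lay above siGRHL2a and overlapped siSOX2b. It was called higher in siTP63b against siGRHL2a (0.88 ± 0.25, edgeR adjusted p = 0.0071), and without siTP63b replicate 2 the log2FC was 0.730 with an adjusted p of 0.0514. TP53I3 lies within FAM228B on the opposite strand, which had 1740% of its counts and a log2FC of -0.12 in that comparison. TIGAR, which lowers glycolytic flux, was lower by adjusted p alone in siKLF5b (-0.32) and in siTP63b against the mean (-0.23), and ENSG00000285901, which overlaps it on the same strand with 466% of its counts, was lower in both comparisons as well (-0.15 and -0.43, edgeR adjusted p = 0.0145 and 8.54e-10). In siTP63b, TIGAR passed the adjusted p against siSOX2b (-0.42) but not against siGRHL2a (-0.05), while ENSG00000285901 passed it against both (-0.40 and -0.46). FDXR, the mitochondrial ferredoxin reductase, and FUCA1, a lysosomal fucosidase, did not pass the test in any of the 5 comparisons.

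**Figure D3:**
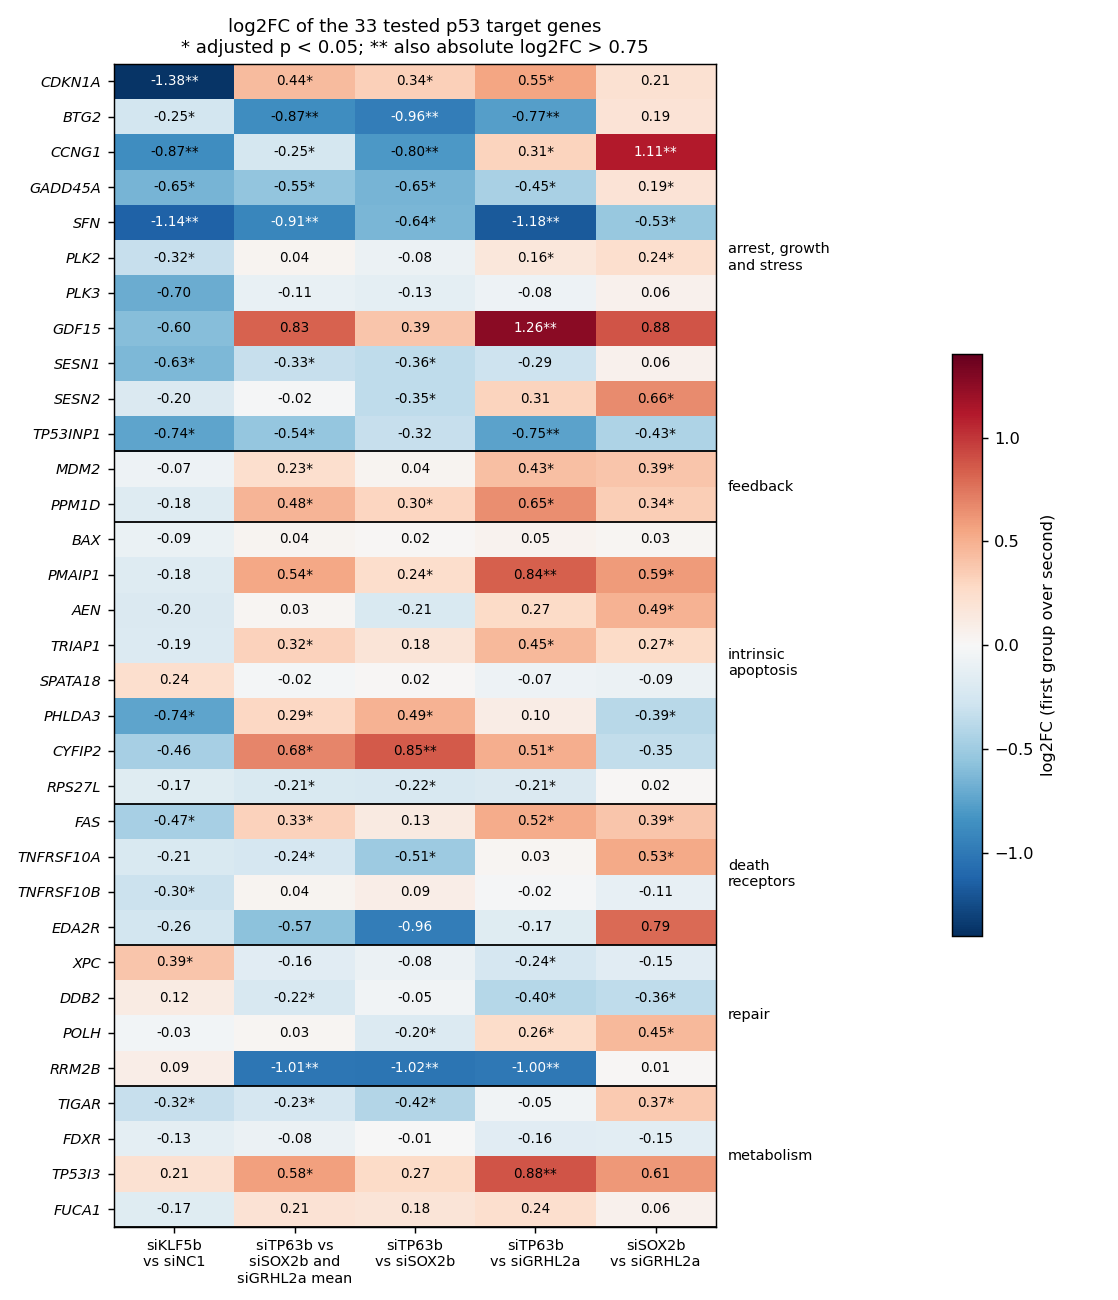
log2FC (colour and number, first group over second) of the 33 tested p53 target genes in 5 comparisons, ordered by role, where 1 asterisk marks an adjusted p below 0.05 and 2 mark a called gene. The arrest, growth and stress rows are all blue in siKLF5b against siNC1, RRM2B is blue in all 3 siTP63b columns, and CDKN1A turns from -1.38 in siKLF5b to 0.44 in siTP63b against the mean.

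TP63 and TP73 RNA was also measured. TP73, whose product can act on the same genes, had a mean of 7.92 CPM in siNC1 and 8.07 in siKLF5b, and of 9.58 in siTP63b, 11.5 in siSOX2b and 18.9 in siGRHL2a. TP73 was called lower in siTP63b against siGRHL2a (-0.98 ± 0.09, edgeR adjusted p = 8.15e-10), and siGRHL2a was its highest group. TP63 was 624 CPM in siKLF5b, where it did not pass the test (-0.13, edgeR adjusted p = 0.0666). Its mean was 682 CPM in siNC1, 363 in siTP63b, 690 in siSOX2b and 831 in siGRHL2a. The comparison of siTP63b with siGRHL2a is thus with a group highest in both TP63 and TP73 RNA. These are levels of RNA, and the amounts of the p63 and p73 proteins are not part of these data. The study ran Western blots of the targeted proteins, p63 among them, in siRNA-transfected HCC95 cells. Those blots were not used here. Of the 20 family members and regulators listed, 19 were tested, and TP63 and TP73 were the only ones called in any of the 5 comparisons.

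**Figure D4:**
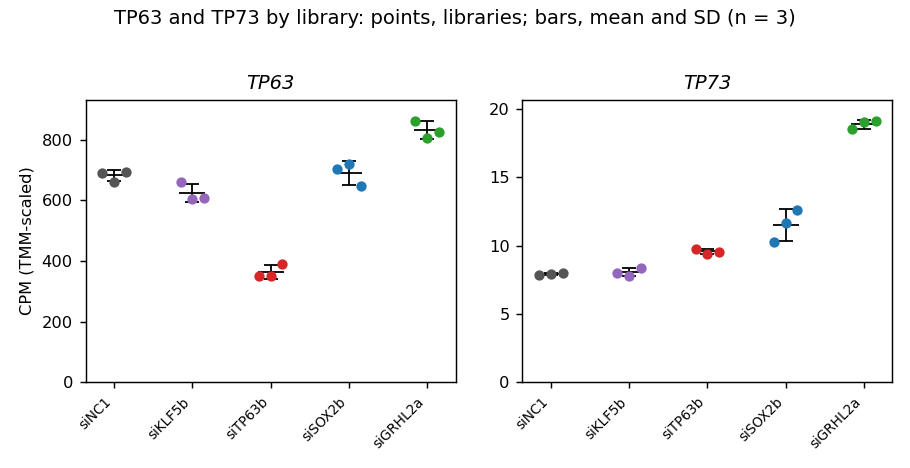
CPM (TMM-scaled, from 0) of TP63 and TP73 in the 15 libraries, with points for libraries and bars for the mean and SD (n = 3). TP63 is lowest in siTP63b at 350 to 389 CPM and TP73 is highest in siGRHL2a at 18.5 to 19.2 CPM.

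Another list held 30 further p53 targets, of which 29 were tested. In siTP63b against the mean of siSOX2b and siGRHL2a, 4 of them were called lower (13.8%, against 2.73% of all genes) and 0 higher (against 2.65%), with a median log2FC of -0.0152 for the list. Among them were TP53AIP1, a mitochondrial apoptosis gene (-1.61 ± 0.08, edgeR adjusted p = 6.36e-16), the inflammatory caspase CASP1 (-0.86) and the placental growth factor PGF (-0.85). TP53AIP1 had 5.95 to 7.30 CPM in siTP63b, 16.6 to 18.97 CPM in siSOX2b and 20.8 to 22.3 CPM in siGRHL2a, and 24.5 to 30.0 CPM in siNC1 and siKLF5b, so that siTP63b lay below all other groups. Against siSOX2b the genes called included TP53AIP1 (-1.48) and PGF (-1.20) lower and the adhesion gene NINJ1 higher (0.89), and against siGRHL2a they included TP53AIP1 (-1.74), RAP2B (-0.91) and CASP1 (-0.98), all lower. RAP2B was also called lower in siSOX2b against siGRHL2a (-1.08). In siKLF5b against siNC1, PERP, a desmosome gene that p53 and p63 share, was called higher (0.79 ± 0.05), 0 were called lower, and 11 were lower and 3 higher by adjusted p alone (37.9% and 10.3%, against 12.9% and 10.3% of all genes).

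p21 lowers genes of the cell cycle by keeping the DREAM repressor complex assembled, and 30 such genes formed another list, all of them tested. In siKLF5b, where CDKN1A was at 38.5% of siNC1, 0 of the 30 were called in either direction, 9 were lower and 6 higher by adjusted p alone (30% and 20%, against 12.9% and 10.3% of all genes), and the median was -0.0409. In siTP63b against the mean of siSOX2b and siGRHL2a, where CDKN1A was higher, 0 were called, 1 was lower and 11 were higher by adjusted p alone (3.33% and 36.7%, against 14.9% and 16.1% of all genes), and the median was 0.0663. Against siSOX2b alone, 8 were lower and 6 higher by adjusted p (26.7% and 20%, against 15.4% and 16.4% of all genes). The median there was -0.0207. Against siGRHL2a, 1 was lower and 16 were higher (3.33% and 53.3%, against 13.4% and 13.6%), with a median of 0.167. siSOX2b against siGRHL2a itself gave 4 lower and 16 higher (13.3% and 53.3%, against 12.7% and 11.8%), with a median of 0.165. E2F2 was called higher against siSOX2b (0.89) and CDC25A against siGRHL2a (0.79). The proliferation of the cells was not measured in these libraries.

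Set against siNC1, siTP63b gave 4 p53 target genes called lower and 1 higher, where 9.24% and 11.4% of all genes were called. RRM2B (-1.67), TP53INP1 (-1.48), CCNG1 (-1.26) and EDA2R (-1.17) were lower and TP53I3 (0.95) higher, while CDKN1A (0.67) and PPM1D (0.65) passed the adjusted p alone. In the same libraries siSOX2b and siGRHL2a stood at -0.65 and -0.66 for RRM2B against siNC1, at -1.15 and -0.73 for TP53INP1, and at -0.46 and -1.57 for CCNG1. The level of each of these 3 genes was thus lower than siNC1 in all 3 knockdowns of the other set, and what part belongs to the set cannot be told apart.

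The counting took in the whole span of each gene, introns included, and 21 of the 35 genes overlap another listed gene, 14 of them one with at least 10% as many counts. Where reads of both genes were counted, they cannot be separated. The whole span of TIGAR (52266 bases) lies within ENSG00000285901 on the same strand, so its values cannot be read as those of TIGAR alone. CDKN1A, SFN, CCNG1, BTG2, GADD45A and RRM2B were not among the 14. Squamous markers moved beside the p53 target genes: of 8 measured, KRT14 (-1.26) and KRT6A (-1.29) were called lower in siKLF5b against siNC1, and KRT14 (-1.35) and DSC3 (-0.84) in siTP63b against the mean. Their part in the values of SFN, itself an epithelial gene, was not tested. Of the markers of other cell types, 3 of 6 fibroblast, 2 of 5 immune and 1 of 3 endothelial genes had enough counts to be tested. PDGFRB, at a mean of 1.23 to 3.23 CPM, was the only one called in these 2 comparisons, lower in siKLF5b (-0.85) and in siTP63b (-1.12), and its part was not tested.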

How the data were processed

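HCC95 RNA-seq comprised 3 libraries for each of 5 groups. Paired-end reads had been mapped to hg38 by the authors using HISAT2 2.2.1 and assigned to genes using featureCounts 2.0.1 and Gencode release 40, and they deposited raw counts without normalization. The counted length of a gene was its whole span. Strand and the counting of reads or fragments are not given in the sources used here. Library totals were 15655495 to 34229063 counts, and replicates differed by more than sampling noise. The chi-square per gene was 2.04 to 4.34 in siNC1 and siKLF5b, and 4.95 to 8.1 in siTP63b, siSOX2b and siGRHL2a. The latter values would be too high if both reads of a pair were counted. Each of the 15 columns was assigned to its library from the column name.

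Counts were filtered with filterByExpr by group, scaled with TMM and tested in 1 fit of 15 libraries with the quasi-likelihood test of edgeR 4.0.16 (R 4.3.3), with Benjamini-Hochberg adjustment over 25108 genes. CPM used the same effective library sizes. The thresholds on adjusted p (0.05) and log2FC (0.75) follow the study. The steps were tested on simulated data. The 35 genes and the other lists were chosen with earlier results of these data known. Values in every library were given for CDKN1A, MDM2, SFN, GDF15 and each of the 35 genes called in at least 1 of 5 comparisons, and up to 4 called genes were named per further list and comparison. Results of some genes that this rule names are not reported here. GADD45A, PPM1D and the overlapping genes were described after their values were seen. Overlaps came from the positions in the deposited table, with gene types from Gencode release 44. The p53 consensus was searched in hg38, a search chosen after the data were seen, and sequences from the chromosome of RRM2B and TP53INP1 are not shown.

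The alternatives were RLE size factors, the low-count filter removed or raised to 10 counts in every library, a fit of the compared libraries alone, DESeq2 1.42.0, replicate number added as a block, no fold threshold or 1, halved counts in the 9 libraries with more even counts, siNC1 as the comparison group of siTP63b, and each library left out in turn. An SE of a log2FC was taken from its F statistic.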

Additional observations from a re-analysis of the deposited data

How the results depend on the processing

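Of 242 values of called genes under an alternative, 224 kept direction and call, 17 kept direction and lost the call, and 1 reversed: SFN in siTP63b, with siNC1 as the comparison group, had a log2FC of 0.0293 (adjusted p = 0.825), where this setting also changes the set of libraries compared. With no threshold on log2FC the counts of genes lower and higher were 12 and 1 in siKLF5b against siNC1, 11 and 9 in siTP63b against the mean of siSOX2b and siGRHL2a, 11 and 5 against siSOX2b, 8 and 12 against siGRHL2a, and 4 and 13 in siSOX2b against siGRHL2a. An absolute log2FC above 1 left 1 gene lower in siTP63b against the mean, 1 lower and 0 higher against siSOX2b, and 2 lower and 1 higher against siGRHL2a. Without a low-count filter, and with siNC1 as the comparison group, 1 gene was higher in siTP63b in place of 0.

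Leaving out each library in turn gave 3 to 5 genes lower and 0 to 0 higher in siKLF5b against siNC1, 2 to 3 lower and 0 to 1 higher in siTP63b against the mean, 3 to 4 lower and 0 to 1 higher against siSOX2b, 2 to 4 lower and 2 to 3 higher against siGRHL2a, and 0 to 0 lower and 1 to 2 higher in siSOX2b against siGRHL2a. CCNG1 in siTP63b against siSOX2b was -0.716 without siSOX2b replicate 2. The correlation of deviations of libraries with the same replicate number was small, from -0.0312 to 0.0345. In siSOX2b against siGRHL2a it was 0.0184 to 0.0287, above the -0.0222 to 0.00092 of libraries with different numbers. In the other comparisons of single groups these ranges overlapped. With the replicate number as a block, TP53INP1 in siTP63b against siGRHL2a was -0.735 and lost its call, which left 3 genes lower there in place of 4, and no other call changed.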
